A study of Homo sapiens with 12 samples.

Results

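The H1299 libraries compared cells transfected with an siRNA against NGFR (siNGFR) with cells transfected with a control siRNA (siCont). They were chosen by the cell line in their labels and made up 6 of the 12 libraries of the series, with 3 siNGFR and 3 siCont libraries, each labelled a biological replicate. H1299 is an established human non-small-cell lung cancer line that lacks p53, and both groups were grown in the same serum-containing medium, received no drug by their labels and differed in the siRNA. The other 6 libraries came from H460, a lung cancer line that keeps p53, with NGFR knocked down or with a control. The knockdown titles differ between the lines by an unexplained 3 in H1299, and whether both lines received the same siRNA is not stated. All libraries were total RNA depleted of ribosomal RNA and sequenced on an Ion instrument. Reads were counted per gene on hg38, and 18921 of the 64253 genes in the table had enough reads in H1299 to be tested.

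NGFR, also called p75NTR or CD271, is a transmembrane receptor of the tumor necrosis factor receptor superfamily that binds neurotrophins, works with the Trk receptors and sortilin, and signals through adaptor proteins to NF-kB and JNK. p53 is a transcription factor that switches on genes of cell cycle arrest, apoptosis and repair, CDKN1A, BAX and MDM2 among them. The H1299 arm therefore addresses which transcripts differ after the siRNA where no p53 protein is made, and whether they differ from those in H460.

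Depth ranged from 16672164 to 36116823 counts per siNGFR library, against 19571807 to 22560867 per siCont library. Levels are given as CPM (the count of a gene scaled to a library of equal size for all samples), adjusted by the trimmed mean of M values, and changes as log2 fold changes of siNGFR over siCont with their standard errors. Adjusted p-values are Benjamini-Hochberg values of edgeR's quasi-likelihood test over the 18921 genes. In a principal component analysis, the leading axis carried 68.9% of the spread. On it siNGFR replicate 1 scored -57.9 and replicate 2 scored -68.8, whereas siNGFR replicate 3 scored 19.4, beside siCont replicates 1 to 3 at 22.6, 50.2 and 34.4. siNGFR replicate 3 thus stood apart from its own group. Changes of named genes in H1299 are therefore given with all 3 siNGFR libraries and with replicates 1 and 2 alone. Responses set beside those of H460 come from all libraries only. Since siNGFR replicate 3 was set aside for its values, p-values of the smaller set do not stand on their own. The chi-square statistic per degree of freedom between replicates of a group was 28.3 to 227, so no library was a repeat of another in its group. It was not computed between siNGFR and siCont libraries. Markers of leukocytes, fibroblasts, endothelium and lung epithelium summed to at most 1.10 CPM in any library, and no member of these lists had enough reads to be tested. Neural markers summed to 8.99 to 9.70 CPM in siNGFR, against 9.78 to 11.2 CPM in siCont, nearly all from MBP, which was not called (-0.17, adjusted p = 0.39; -0.20 with all libraries, adjusted p = 0.39).

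**Figure D1:**
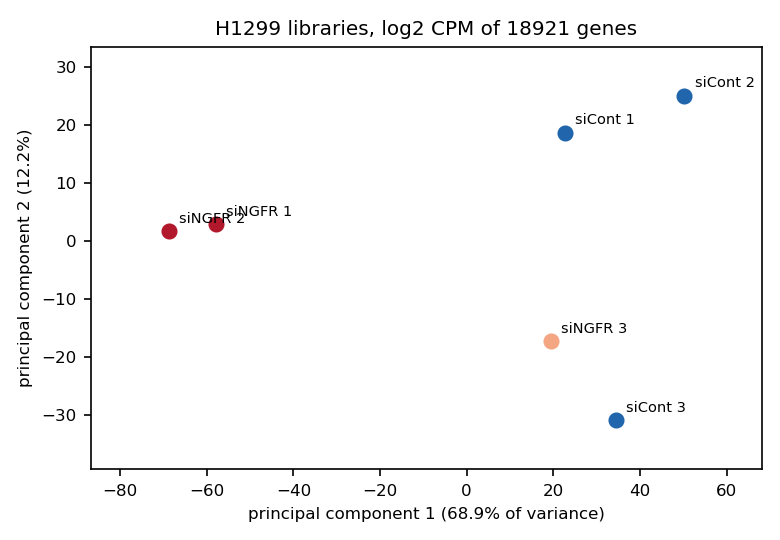
Principal component 1 (horizontal, 68.9% of the variance) and 2 (vertical, 12.2%) of log2 CPM of the H1299 libraries; each point is a library, dark red for siNGFR replicates 1 and 2, light red for siNGFR replicate 3 and blue for siCont. siNGFR replicates 1 and 2 lie at -57.9 and -68.8 on the horizontal axis, and siNGFR replicate 3, at 19.4, lies on the side of the siCont libraries.

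NGFR itself was almost absent from the counts. The gene had 1, 0 and 1 counts in siNGFR replicates 1 to 3, against 1, 6 and 1 counts in siCont replicates 1 to 3. The 95% Poisson upper limits, which cover counting error, were 0.146, 0.202 and 0.165 CPM in siNGFR, against 0.241, 0.705 and 0.322 CPM in siCont. The groups overlap, no fold change was computed, and depletion of NGFR mRNA was not detectable at this depth. The H460 libraries held 0 to 3 NGFR counts in siNGFR and 1 to 3 in siCont.

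With all 3 siNGFR libraries, 2 genes rose (0.0106% of those tested) and 2 fell (0.0106%). The genes that rose encode IGFBP3, a secreted carrier of insulin-like growth factors, and RHOB, a small GTPase of the actin cytoskeleton and of endosome traffic. Those that fell are H2AFZP1, a processed pseudogene of the histone variant gene H2AFZ, and RNU6-33P, a copy of the U6 spliceosomal RNA. All 4 were also called with siNGFR replicates 1 and 2. The test of all libraries includes replicate 3 and favours genes in which it lies with its group. The place of replicate 3 in these 4 genes is therefore no separate result. Without siNGFR replicate 1, or without any 1 of the siCont replicates, none of the 4 was called (adjusted p = 0.0828 to 0.413), and without siNGFR replicate 2 IGFBP3 and H2AFZP1 were. At an unadjusted p under 0.05 the count was 3402 genes, 1598 higher and 1804 lower. In 10.5% of all genes every siNGFR library exceeded every siCont library, and in 10.3% every siNGFR library lay below.

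IGFBP3 (ENSG00000146674, chr7:45912245-45921874, minus strand) had 10.8, 7.06 and 7.66 CPM in siNGFR, against 1.37, 1.57 and 1.73 CPM in siCont. All siNGFR libraries lay above all siCont libraries, replicate 3 included. The means were 8.51 ± 2.00 CPM in siNGFR and 1.56 ± 0.178 CPM in siCont (SD, n = 3 each). The change was 2.46 ± 0.22 with all libraries (adjusted p = 0.0204) and 2.55 with siNGFR replicates 1 and 2 (adjusted p = 1.37e-05).

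RHOB (ENSG00000143878, chr2:20447074-20449445, plus strand) had 36.02, 38.5 and 33.7 CPM in siNGFR, against 12.4, 12.5 and 16.3 CPM in siCont. Here too replicate 3 lay above all siCont libraries. The means were 36.1 ± 2.43 CPM in siNGFR and 13.7 ± 2.22 CPM in siCont (SD, n = 3 each), a change of 1.39 ± 0.14 with all libraries (adjusted p = 0.0383) and of 1.44 with siNGFR replicates 1 and 2.

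The promoters of both genes are shown because these 2 genes were the ones called higher with all libraries. They are RefSeq sequences of GRCh38.p14, 250 bases before the start and 50 after it, at chr7:45921223-45921522 (minus strand) and chr2:20446824-20447123 (plus strand). Capitals mark TATATA in IGFBP3, first base at -30, and CCAAT in RHOB, at -115 and, as its reverse complement ATTGG, at -66. Both motifs were searched on both strands. TATATA was found in 3.99% and CCAAT in 34.6% of the 35116 promoters of the table, so the matches are a description and not sites of action.
IGFBP3: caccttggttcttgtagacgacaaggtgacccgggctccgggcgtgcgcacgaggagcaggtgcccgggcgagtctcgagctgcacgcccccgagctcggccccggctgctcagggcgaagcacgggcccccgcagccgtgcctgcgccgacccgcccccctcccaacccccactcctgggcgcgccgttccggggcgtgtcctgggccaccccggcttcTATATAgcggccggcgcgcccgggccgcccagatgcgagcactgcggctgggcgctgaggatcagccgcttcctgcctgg
RHOB: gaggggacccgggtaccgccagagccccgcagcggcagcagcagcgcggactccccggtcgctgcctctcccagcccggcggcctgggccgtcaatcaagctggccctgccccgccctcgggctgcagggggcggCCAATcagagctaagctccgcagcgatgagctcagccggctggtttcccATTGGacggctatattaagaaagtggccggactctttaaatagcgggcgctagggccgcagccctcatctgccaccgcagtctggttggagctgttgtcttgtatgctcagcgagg

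H2AFZP1 (ENSG00000213440, chr21:44046347-44047041, minus strand) had 2.37, 1.63 and 2.24 CPM in siNGFR, against 8.93, 10.3 and 8.65 CPM in siCont. It changed by -2.13 ± 0.18 with all libraries (adjusted p = 0.0204) and by -2.16 with siNGFR replicates 1 and 2. The pseudogene aligned to the H2AFZ mRNA with 357 identical bases in 397 aligned columns, so reads of one may be counted for the other. H2AFZ, which encodes the histone variant H2A.Z, had 129, 140 and 277 CPM in siNGFR, against 307, 357 and 358 CPM in siCont. H2AFZ changed by -0.90 ± 0.28 with all libraries (adjusted p = 0.26) and fell by 1.34 with replicates 1 and 2. Replicate 3 lay nearer to siCont for H2AFZ but with its own group for the pseudogene, which was picked with replicate 3 included.

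RNU6-33P (ENSG00000207524, chr4:88684848-88684954, minus strand) had 0.286, 0.217 and 0.413 CPM in siNGFR, from 11, 4 and 14 counts, against 3.26, 5.29 and 2.48 CPM in siCont, from 76, 98 and 43 counts. It changed by -3.52 ± 0.38 with all libraries (adjusted p = 0.0426) and by -3.78 with siNGFR replicates 1 and 2. With under 50 counts per library on average it fell outside the rule for named genes and was named after its value was seen. U6 is the RNA at the catalytic centre of the spliceosome, transcribed by RNA polymerase III from a few active genes among many copies. The copies are near-identical, so a count of 1 copy is not independent of the others. All 19 tested U6 loci had every siNGFR library below every siCont library, against 10.3% of all genes tested. With all libraries 1 of these loci was called.

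**Figure D2:**
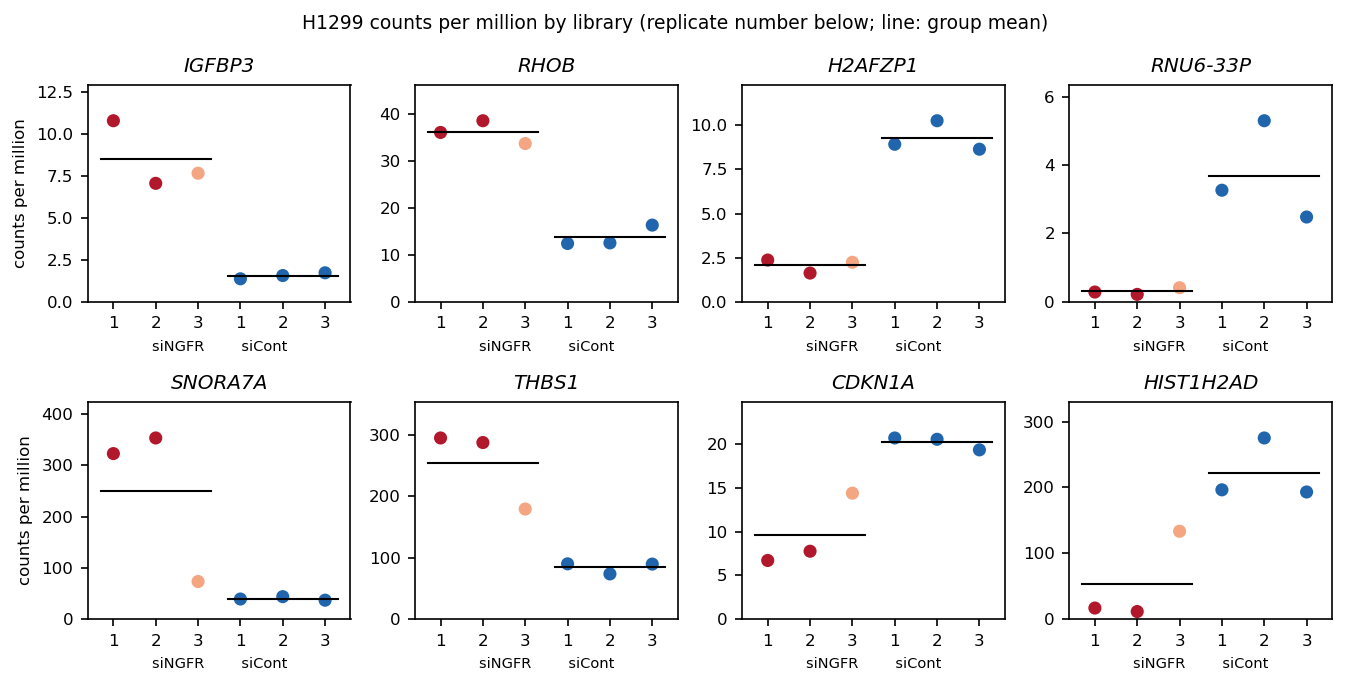
CPM (vertical, linear, from 0) of 8 genes in each H1299 library, with siNGFR replicates 1 to 3 left of siCont replicates 1 to 3 in every panel and a line at each group mean. In the 4 genes called with all libraries (top) siNGFR replicate 3 lies with its group, which the choice of these genes favours. In SNORA7A, THBS1, CDKN1A and HIST1H2AD (bottom) it lies between its group and siCont.

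With siNGFR replicates 1 and 2 against the 3 siCont libraries, 2157 genes rose (11.4% of those tested) and 3139 fell (16.6%). The genes that rose had median log2 differences from the siCont mean of 0.55 and 0.59 in siNGFR replicates 1 and 2, and of 0.13 in replicate 3. In replicate 3, 1101 of them lay above the siCont range, 974 within it and 82 below it. For the genes that fell the medians were -0.85 and -0.90, and -0.13 in replicate 3, which lay below the siCont range in 1242, within it in 1726 and above it in 171. The rest of this section uses "rose" and "fell" for calls with replicates 1 and 2, and IGFBP3 was the sole member of any gene list called with all libraries. List counts below are to be read beside the shares of all genes, 11.4% rises and 16.6% falls, and no difference from these shares was tested. With library sizes as the sole scaling, the median of all genes moved to 0.28 and 71.4% of the calls were higher, against 40.7% with the trimmed mean, so each change is relative to the middle of all genes.

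Genes with few exon bases were lower in siNGFR replicates 1 and 2. Exon bases are the summed exon length given per gene, which can exceed the length of any single mRNA of the gene. The median change was -0.75 for genes under 200 exon bases, -1.23 from 200 to under 400, -0.37 from 400 to under 1000, -0.18 from 1000 to under 2000, 0.01 from 2000 to under 5000 and 0.18 for 5000 and over. Among protein-coding genes alone the medians were -1.58 from 200 to under 400 exon bases, -0.41 from 400 to under 1000 and -0.27 from 1000 to under 2000. They were 0.01 from 2000 to under 5000 and 0.18 for 5000 and over. Median exon length was 172 bases for spliceosomal U RNAs, 417 for replication-dependent histones, 2298 for oxidative phosphorylation and 2412 for ribosomal proteins, against 3392 over all genes tested. It was 3105 for immediate-early genes and 5133 for hypoxia and glycolysis. The length of the mRNAs themselves was not used, and what part length had in these results was not tested. Genes under 400 exon bases took 41.7%, 47.2% and 50.6% of the counts in siNGFR replicates 1 to 3, against 48.7%, 53.7% and 51.5% in siCont replicates 1 to 3.

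Among the lists, small nuclear RNAs had the highest share of falls. Of 60 tested spliceosomal U RNAs, the RNA parts of the snRNPs that excise introns, 54 fell and 0 rose, with a median of -2.19 against 0.01 over all genes. Over all loci of each RNA, pseudogenes included, 58 of 63 U1 loci fell, as did 27 of 30 U2, 14 of 15 U4, 11 of 11 U5 and 19 of 19 U6 loci. Summed over loci, U1 RNA had 9198, 9425 and 34627 CPM in siNGFR, against 50517, 89530 and 42112 CPM in siCont. Summed U4 RNA had 29.1, 29.5 and 194 CPM in siNGFR, against 344, 601 and 302 CPM in siCont. In both, all siNGFR libraries were below all siCont libraries, and replicate 3 was several times above the other siNGFR libraries. Summed U2 RNA had 4057, 4700 and 5256 CPM in siNGFR, against 8234, 11549 and 7701 CPM in siCont. For U2 replicate 3 thus lay near the other siNGFR libraries. RNU1-4, a U1 gene, had 1155, 1180 and 4329 CPM in siNGFR, against 6210, 11198 and 5246 CPM in siCont, and fell by 2.69 (-1.77 with all libraries, adjusted p = 0.26). Among the falls of largest size was RNU5E-4P, a U5 copy, with 0.858, 0.598 and 10.6 CPM in siNGFR, against 16.7, 31.1 and 15.9 CPM in siCont (-4.78 ± 0.36, adjusted p = 4.20e-06). With all libraries its change was -2.35 (adjusted p = 0.26). RNU4-30P and RNU6-36P changed by -4.29 and -4.23. With all libraries RNU4-30P stood at -2.60 and RNU6-36P at -2.75.

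The 7SK RNA, which holds the elongation factor P-TEFb inactive, fell in the same libraries. RN7SK had 12072, 15819 and 66396 CPM in siNGFR, against 57072, 66613 and 80588 CPM in siCont. The change was -2.29 ± 0.30 with siNGFR replicates 1 and 2 (adjusted p = 0.000192) and -1.12 ± 0.63 with all libraries (adjusted p = 0.36). Replicate 3 lay within the siCont range. Of 137 tested 7SK loci, 130 fell, among them RN7SKP228, with 3.69, 1.74 and 38.2 CPM in siNGFR, against 60.3, 46.0 and 62.6 CPM in siCont (-4.27 ± 0.25; -1.93 with all libraries). RN7SKP237 changed by -4.20. These copies may share reads with RN7SK. Of 180 loci of 7SL, the RNA of the signal recognition particle, 137 fell, and 37 of 68 Y RNA loci did. Of the main 7SL genes, RN7SL1 was not called (-0.70, adjusted p = 0.073; -0.44 with all libraries) and RN7SL2 fell (-1.15, adjusted p = 0.00606; -0.74 with all libraries, adjusted p = 0.32). RMRP, the RNA of the mitochondrial RNA processing endonuclease, had 38182, 106723 and 64338 CPM in siNGFR, against 22917, 40124 and 65304 CPM in siCont, and was not called (0.76, adjusted p = 0.24). With all libraries RN7SKP237 stood at -1.93 and RMRP at 0.71.

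Replication-dependent histone mRNAs, which are made in S phase and end in a stem-loop in place of a poly(A) tail, fell almost as a group. Of 73 tested, 65 fell and 0 rose, with a median of -1.58. HIST1H2AD, an H2A gene, had 16.8, 11.5 and 133 CPM in siNGFR, against 196, 275 and 193 CPM in siCont. All siNGFR libraries were below all siCont libraries, and replicate 3 was far above the other siNGFR libraries. HIST1H2AD fell by 3.95 (SE 0.22, adjusted p = 8.44e-07), against -2.04 with all libraries (adjusted p = 0.26). Summed over the list, histone mRNAs had 7022, 7449 and 19657 CPM in siNGFR, against 19656, 26039 and 23101 CPM in siCont. Among those of at least 400 exon bases, 41 fell and 0 rose. The stem-loop is shown from HIST1H2AE, picked as an example and not for its change, with the stem and loop in capitals. A pattern of this stem-loop, with a choice of bases at a few positions, was searched in annotated transcripts. It was found in those of 28 of 71 histone genes (39.4%), against 2 of 19630 other protein-coding genes (0.0102%). A stem-loop of another sequence, or one left out of the annotated transcript, was not counted, so histone genes without a match may have one.
HIST1H2AE: caaaGGCTCTTTTCAGAGCCacccac

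Replacement histones, which are made outside S phase too, had 7 falls and 0 rises among 11. H2AFX, whose product is phosphorylated at DNA breaks, had 59.7, 44.0 and 111 CPM in siNGFR, against 103, 129 and 120 CPM in siCont (-1.18; -0.72 with all libraries), and replicate 3 lay within the siCont range.

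**Figure D3:**
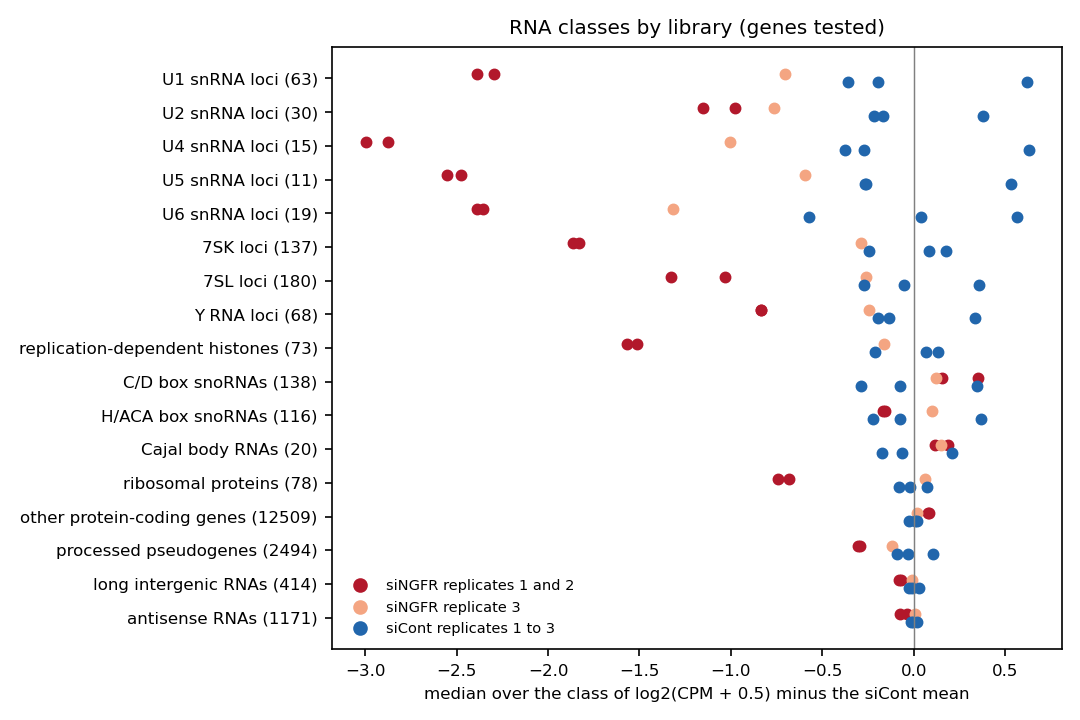
Median over each RNA class of log2(CPM + 0.5) minus the siCont mean (horizontal), 1 point per H1299 library, siNGFR drawn above siCont in each row and the number of genes tested in brackets. For U1, U4, U5, U6 and 7SK loci and histones, siNGFR replicates 1 and 2 lie at or below -1.51, replicate 3 lies between -1.32 and -0.16, and the siCont libraries lie between -0.57 and 0.63. For U2 loci siNGFR replicates 1 to 3 lie at -1.15, -0.98 and -0.76.

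Small nucleolar RNAs did not move as a group. C/D box RNAs, which guide 2′-O-methylation, had 25 rises and 12 falls among 149 tested, with a median of 0.24. With library sizes as the sole scaling these counts were 64 and 9. H/ACA box and Cajal body RNAs, which guide pseudouridylation, had 23 rises and 39 falls among 136 (37 and 32 with library sizes). SNORA7A (ENSG00000207496), an H/ACA RNA in an intron of RPL32, was among the 10 largest rises. SNORA7A had 323, 354 and 73.3 CPM in siNGFR, against 39.2, 43.8 and 36.9 CPM in siCont. It rose by 3.08 ± 0.12 (adjusted p = 1.08e-07), against 2.64 ± 0.50 with all libraries (adjusted p = 0.21), and replicate 3 lay above siCont but far below replicates 1 and 2. SNORA7B had 83.9, 84.6 and 29.7 CPM in siNGFR, against 20.3, 24.2 and 19.1 CPM in siCont (1.99 ± 0.12; 1.64 with all libraries). The pair, read from GRCh38, differs by G26C and C114T from SNORA7A to SNORA7B, counted from the 5′ end and marked by capitals, and so may share reads.
SNORA7A (chr3:12840312-12840450, minus strand): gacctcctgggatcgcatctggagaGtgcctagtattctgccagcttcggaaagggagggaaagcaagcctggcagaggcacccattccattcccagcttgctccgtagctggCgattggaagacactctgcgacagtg
SNORA7B (chr3:129397210-129397348, minus strand): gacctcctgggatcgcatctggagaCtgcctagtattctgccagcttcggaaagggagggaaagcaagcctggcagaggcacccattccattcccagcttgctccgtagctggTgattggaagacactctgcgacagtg

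Other snoRNAs that rose were SNORD87, SNORD13 and SNORA71B. SNORD87 had 38.3, 60.7 and 11.996 CPM in siNGFR, against 6.52, 7.94 and 9.22 CPM in siCont (2.65 ± 0.19; 2.22 with all libraries). SNORD13, a guide of 18S ribosomal RNA acetylation, had 87.1, 75.3 and 47.9 CPM in siNGFR, against 22.2, 32.6 and 19.2 CPM in siCont (1.72 ± 0.18; 1.51 with all libraries). SNORA71B had 332, 318 and 146 CPM in siNGFR, against 70.1, 35.4 and 102 CPM in siCont (2.24 ± 0.29; 1.94 with all libraries). In all 3, replicate 3 lay above siCont and below replicates 1 and 2. Most intronic snoRNAs are cut from the introns of a host gene, and host and snoRNA were set side by side. Among pairs with a snoRNA that rose, the host rose in 12, fell in 7 and was not called in 24. Among pairs with a snoRNA that fell, the host rose in 6, fell in 7 and was not called in 29. Where the snoRNA was not called, the host rose in 38, fell in 24 and was not called in 108. A snoRNA within several host genes entered several pairs, as SNORD10 and SNORA48 did, so pairs are not independent. SNHG6, the host of SNORD87, rose by 0.75, and SNHG17, the host of SNORA71B, was not called (0.21). With all libraries SNHG6 stood at 0.56 and SNHG17 at 0.19.

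Ribosomal protein mRNAs fell in number. Of 82 genes of the cytosolic ribosome, 55 fell and 4 rose, with a median of -0.65. RPL37A, of the large subunit, had 48.6, 57.5 and 307 CPM in siNGFR, against 362, 444 and 365 CPM in siCont (-2.88 ± 0.16, adjusted p = 8.12e-07; -1.50 with all libraries, adjusted p = 0.27). RPS28, of the small subunit, had 9.23, 8.36 and 45.8 CPM in siNGFR, against 41.2, 51.6 and 58.3 CPM in siCont (-2.51; -1.24 with all libraries), and RPL37 changed by -2.19. Replicate 3 was within the siCont range for RPS28 and RPL37. RPL13A stood on the other side, with 644, 687 and 519 CPM in siNGFR, against 400, 423 and 397 CPM in siCont (0.71 ± 0.13; 0.60 with all libraries), without overlap. RPL32 had 490, 521 and 384 CPM in siNGFR, against 338, 348 and 336 CPM in siCont (0.57 ± 0.12; 0.45 with all libraries), and RPL17 rose by 0.46. All 4 ribosomal protein genes that rose host a tested snoRNA and 2 of them host one that rose, SNORA7A in RPL32 and both SNORD32A and SNORD33 in RPL13A. Of the 55 that fell, 14 host a tested snoRNA and 4 host one that rose, and of the 23 that were not called 8 host a tested snoRNA and 5 host one that rose. Unspliced RNA was not separated from mRNA in the counts. With all libraries RPL37 stood at -1.18 and RPL17 at 0.43.

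Nuclear genes of oxidative phosphorylation moved in the same direction, with 46 falls and 3 rises among 80 and a median of -0.53. The 3 that rose were UQCRH and UQCRB, subunits of complex III, and NDUFA8, of complex I. UQCRH had 54.8, 68.9 and 46.6 CPM in siNGFR, against 39.1, 41.0 and 41.0 CPM in siCont (0.61 ± 0.12; 0.49 with all libraries). Proteasome subunits had 12 falls and 4 rises among 39, and with library sizes as the sole scaling 5 and 9.

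Targets of YAP and TEAD, the transcription factors at the end of the Hippo pathway, had the highest share of rises among the lists with 10 or more tested members. Of 25 tested, 15 rose and 2 fell, with a median of 0.47 against 0.01 over all genes, and 15 had every siNGFR library above every siCont library. Median exon length in the list was 5979 bases, against 3392 bases over all genes. IGFBP3 belongs to the list. AMOTL2, a scaffold that binds YAP, had 113, 91.9 and 58.4 CPM in siNGFR, against 46.1, 48.6 and 40.6 CPM in siCont (1.18 ± 0.13, adjusted p = 4.85e-05; 0.96 with all libraries, adjusted p = 0.26). ANKRD1, a nuclear ankyrin repeat protein, had 12.6, 8.80 and 7.16 CPM in siNGFR, against 5.41, 4.75 and 4.84 CPM in siCont (1.11 ± 0.18; 0.93 with all libraries). CYR61, a secreted matrix protein, had 12.4, 11.4 and 10.1 CPM in siNGFR, against 7.30, 7.45 and 8.82 CPM in siCont (0.61 ± 0.14; 0.52 with all libraries). In these 3 genes replicate 3 lay above all siCont libraries. NT5E, an ectonucleotidase, and FJX1, the human relative of Drosophila four-jointed, fell by 0.70 and 0.71. With all libraries NT5E stood at -0.56 and FJX1 at -0.39.

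The ANKRD1 promoter, RefSeq GRCh38.p14 chr10:90921038-90921337 on the minus strand, is shown as an example of the list, with capitals on GGAATG, the core bound by TEAD factors, at -220 and -128 on the gene's strand. GGAATG, searched on both strands, was found in 14.0% of all promoters of this length, and its presence says nothing of binding in these cells.
ANKRD1: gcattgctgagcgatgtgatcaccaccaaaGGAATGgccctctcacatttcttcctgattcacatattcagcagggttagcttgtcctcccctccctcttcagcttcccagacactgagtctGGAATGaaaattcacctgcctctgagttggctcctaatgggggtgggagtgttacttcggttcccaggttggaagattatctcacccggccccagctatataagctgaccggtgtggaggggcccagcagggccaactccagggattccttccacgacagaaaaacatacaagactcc

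THBS1, which encodes the secreted glycoprotein thrombospondin 1, led the TGF-beta and matrix lists. THBS1 had 295, 287 and 179 CPM in siNGFR, against 89.9, 73.6 and 89.5 CPM in siCont. It rose by 1.79 ± 0.12 (adjusted p = 2.89e-06) and stood at 1.59 ± 0.21 with all libraries (adjusted p = 0.16), without overlap between the groups. In the TGF-beta list 6 of 20 rose and 2 fell. SMAD2, which carries the signal of the receptors, rose by 0.55 and ID2, an inhibitor of basic helix-loop-helix factors, by 0.95. ID1, of the same family, had 40.0, 34.9 and 79.9 CPM in siNGFR, against 73.8, 82.5 and 83.6 CPM in siCont (-1.09 ± 0.12; -0.63 with all libraries). Replicate 3 thus lay among the siCont libraries for ID1 but above all of them for ID2. With all libraries SMAD2 stood at 0.41 and ID2 at 0.95.

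Collagens, laminins and integrins were split, with 7 rises and 7 falls among 25 (11 and 4 with library sizes as the sole scaling). COL12A1, a collagen, had 10.1, 12.2 and 7.13 CPM in siNGFR, against 5.54, 5.35 and 5.25 CPM in siCont (1.04 ± 0.15; 0.85 with all libraries), and ITGB5, an integrin beta chain, rose by 0.72. TNC, the matrix protein tenascin C, had 5.02, 4.02 and 8.19 CPM in siNGFR, against 9.79, 8.21 and 11.4 CPM in siCont (-1.09 ± 0.18; -0.75 with all libraries). The integrin chains ITGA3 and ITGB4 changed by -0.83 and -0.75. Of 12 tested genes of epithelial and mesenchymal state, 5 rose and 2 fell. The tight junction genes TJP1 and CLDN1 rose by 0.79 and 0.94, and so did the mesenchymal gene FN1, by 0.81. VIM, the intermediate filament protein vimentin, had 1196, 1070 and 1688 CPM in siNGFR, against 1815, 1869 and 1924 CPM in siCont (-0.72 ± 0.15; -0.50 with all libraries). TWIST1 changed by -0.76. With all libraries ITGB5 stood at 0.59, ITGA3 at -0.57, ITGB4 at -0.47, TJP1 at 0.60, CLDN1 at 0.92, FN1 at 0.64 and TWIST1 at -0.44.

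Further rises came from genes outside the lists and had no overlap between the groups. CALD1, the actin-binding protein caldesmon, had 8.01, 7.66 and 3.24 CPM in siNGFR, against 2.27, 2.21 and 1.44 CPM in siCont (1.97 ± 0.21; 1.65 with all libraries). ALPK2, an alpha-kinase, had 3.93, 3.26 and 1.65 CPM in siNGFR, against 0.816, 0.648 and 0.519 CPM in siCont (2.42 ± 0.28; 2.13 with all libraries). NTM, the adhesion molecule neurotrimin, had 4.24, 3.75 and 2.51 CPM in siNGFR, against 1.03, 1.19 and 1.15 CPM in siCont (1.84 ± 0.24; 1.64 with all libraries). In each, replicate 3 was the lowest siNGFR library. The pseudogenes ZFAND6P1 and ATP8B5P also rose, by 3.70 and 2.70, but replicate 2 carried them, with 17.9 and 20.8 CPM, against 4.45 and 5.77 CPM in replicate 1. With all libraries ZFAND6P1 stood at 3.23 and ATP8B5P at 2.29.

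NRF2 targets, which serve antioxidant defence and iron handling, had 9 rises and 2 falls among 24, with a median of 0.42. HMOX1, which degrades heme, had 30.5, 27.6 and 17.9 CPM in siNGFR, against 10.8, 10.4 and 9.17 CPM in siCont (1.52 ± 0.12, adjusted p = 7.23e-06; 1.32 with all libraries, adjusted p = 0.20). NQO1, a quinone reductase, rose by 1.001 and TXNRD1, which reduces thioredoxin, by 0.96. TXN, thioredoxin itself, had 27.4, 32.6 and 70.1 CPM in siNGFR, against 76.2, 99.1 and 75.1 CPM in siCont (-1.48 ± 0.15; -0.94 with all libraries). GCLM, a subunit of glutathione synthesis, changed by -0.55. The enzyme that reduces thioredoxin and thioredoxin thus changed in opposite directions. With all libraries NQO1 stood at 0.82, TXNRD1 at 0.77 and GCLM at -0.42.

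Genes of the integrated stress and unfolded protein responses changed in both directions, 14 up and 7 down among 36. ATF3, a stress-induced transcription factor, had 2.26, 2.17 and 1.33 CPM in siNGFR, against 0.773, 0.486 and 0.577 CPM in siCont (1.83 ± 0.31; 1.62 with all libraries). PSAT1, of serine synthesis, rose by 0.83. DDIT4, an inhibitor of mTORC1, had 26.7, 24.9 and 47.4 CPM in siNGFR, against 52.6, 56.3 and 68.3 CPM in siCont (-1.19 ± 0.14; -0.84 with all libraries). The endoplasmic reticulum proteins SDF2L1 and MANF changed by -1.18 and -1.002. Of 20 aminoacyl-tRNA synthetases, 7 rose and 2 fell, and CARS, IARS and AARS rose by 0.79, 0.52 and 0.49. With all libraries PSAT1 stood at 0.65, SDF2L1 at -0.66, MANF at -0.70, CARS at 0.68, IARS at 0.42 and AARS at 0.38.

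p53 targets were of interest because H1299 makes no p53. Among targets for arrest 2 of 10 rose and 1 fell. Among targets for apoptosis 1 of 16 rose and 3 fell, and among those for repair, metabolism and feedback 4 of 20 rose and 2 fell. The medians were -0.23, 0.06 and 0.24, against 0.01 over all genes. Over all genes tested 11.4% rose and 16.6% fell, and a difference of these lists or of the BCL2 family from those shares was not tested. With library sizes as the sole scaling, rises and falls numbered 3 and 1 for arrest, 6 and 2 for apoptosis, and 7 and 1 for repair. CDKN1A, the inhibitor p21 of cyclin-dependent kinases, had 6.71, 7.77 and 14.4 CPM in siNGFR, against 20.7, 20.6 and 19.4 CPM in siCont. It fell by 1.49 (SE 0.13, adjusted p = 1.24e-05), against -1.07 with all libraries (adjusted p = 0.26), and all siNGFR libraries were below all siCont libraries. PLK2, a stress-induced kinase, had 24.4, 21.5 and 13.9 CPM in siNGFR, against 8.37, 7.99 and 8.07 CPM in siCont (1.499 ± 0.12; 1.29 with all libraries). The cyclin gene CCNG1 rose by 0.45. BAX, which opens the mitochondrial outer membrane, had 14.5, 12.2 and 25.1 CPM in siNGFR, against 20.7, 27.0 and 27.8 CPM in siCont (-0.90 ± 0.15; -0.54 with all libraries). The decoy receptor gene TNFRSF6B changed by -1.91 and the membrane protein gene PERP by -0.66. MDM4, which binds and restrains p53, had 4.99, 6.57 and 2.98 CPM in siNGFR, against 2.58, 3.19 and 3.06 CPM in siCont (0.96 ± 0.21; 0.71 with all libraries), with replicate 3 within the siCont range. SESN2 rose by 0.56, and FDXR, a mitochondrial reductase, and TRIAP1 changed by -0.91 and -0.48. In the BCL2 family 1 of 14 rose and 2 fell (3 and 2 with library sizes). BMF, a BH3-only protein, had 2.26, 1.79 and 1.53 CPM in siNGFR, against 0.687, 0.702 and 0.692 CPM in siCont (1.56 ± 0.30; 1.42 with all libraries), and MCL1, an antiapoptotic member, changed by -0.82. With all libraries CCNG1 stood at 0.34, TNFRSF6B at -1.22, PERP at -0.56, SESN2 at 0.40, FDXR at -0.58, TRIAP1 at -0.29 and MCL1 at -0.64.

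Of the neurotrophins, their receptors and adaptors, 13 of 23 listed genes had enough reads to be tested, and 1 rose and 1 fell (7 and 0 with library sizes as the sole scaling). NGFRAP1, an adaptor that binds NGFR, had 96.4, 86.7 and 69.0 CPM in siNGFR, against 58.1, 45.7 and 74.1 CPM in siCont (0.63 ± 0.17, adjusted p = 0.015; 0.50 with all libraries), with replicate 3 within the siCont range. SORCS2, a sortilin-family receptor, changed by -0.59. The values of sortilin (SORT1, 0.28, adjusted p = 0.077), MAGED1 (-0.04, adjusted p = 0.84), BEX1 (-0.28, adjusted p = 0.12) and TRAF6 (0.58, adjusted p = 0.075) did not pass. Of 16 NF-kB subunits and kinases 5 rose and 0 fell, with a median of 0.33. MAP3K7, the kinase TAK1, had 21.6, 26.1 and 13.5 CPM in siNGFR, against 15.1, 12.3 and 11.99 CPM in siCont (0.85 ± 0.14; 0.63 with all libraries). MAP3K14, the kinase NIK, rose by 0.63 and RELA, the p65 subunit, by 0.66. Of 17 NF-kB targets 4 rose and 2 fell. BIRC3, an inhibitor of apoptosis, had 10.8, 12.1 and 8.72 CPM in siNGFR, against 7.17, 5.51 and 7.09 CPM in siCont (0.79 ± 0.16; 0.67 with all libraries), and NFKB1 rose by 0.51. The chemokine gene CXCL2 had 41.6, 36.7 and 65.3 CPM in siNGFR, against 69.4, 70.5 and 68.9 CPM in siCont (-0.83 ± 0.11; -0.54 with all libraries). The NF-kB inhibitor genes NFKBIA (0.37, adjusted p = 0.076) and TNFAIP3 (0.16, adjusted p = 0.60) were not called. Of 23 interferon-stimulated genes 7 rose and 1 fell, with IRF1 at 0.72, IFI35 at 0.97 and ISG15 at -0.59. With all libraries SORCS2 stood at -0.51, SORT1 at 0.19, MAGED1 at -0.04, BEX1 at -0.13, TRAF6 at 0.48, MAP3K14 at 0.51, RELA at 0.49, NFKB1 at 0.41, NFKBIA at 0.31, TNFAIP3 at 0.11, IRF1 at 0.54, IFI35 at 0.78 and ISG15 at -0.39.

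Cell cycle genes changed in both directions. Of 38 genes of G2/M and mitosis 9 fell and 2 rose, and of 41 genes of S phase 11 fell and 2 rose, whereas with library sizes as the sole scaling the counts were 3 and 5, and 3 and 6. Over all genes 16.6% fell and 11.4% rose, and the difference of the lists from that share was not tested. PTTG1, securin, had 25.5, 21.8 and 61.0 CPM in siNGFR, against 69.4, 84.4 and 71.4 CPM in siCont (-1.66 ± 0.14; -1.05 with all libraries). UBE2C and CCNB2 changed by -0.87 and -0.78. GINS2, of the replicative helicase, had 17.6, 15.2 and 28.6 CPM in siNGFR, against 37.0, 33.7 and 31.6 CPM in siCont (-1.05 ± 0.13; -0.74 with all libraries), and TK1 and POLD1 changed by -0.75 and -0.84. Among inhibitors of cyclin-dependent kinases and G1 cyclins, 4 of 16 fell and 2 rose (4 and 4 with library sizes). CCND1, cyclin D1, had 46.5, 51.7 and 91.0 CPM in siNGFR, against 95.1, 105 and 117 CPM in siCont (-1.11 ± 0.13; -0.74 with all libraries). The kinase gene CDK6 and the inhibitor gene CDKN1B rose by 0.58 and 0.35. With all libraries UBE2C stood at -0.60, CCNB2 at -0.53, TK1 at -0.51, POLD1 at -0.57, CDK6 at 0.42 and CDKN1B at 0.25.

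Immediate-early and AP-1 genes, which growth signals switch on within minutes, had 11 falls and 3 rises among 28. IER2 had 28.7, 27.4 and 54.9 CPM in siNGFR, against 54.2, 65.1 and 63.9 CPM in siCont (-1.12 ± 0.12; -0.72 with all libraries). DUSP6, a phosphatase of ERK, had 11.8, 10.6 and 16.8 CPM in siNGFR, against 20.6, 20.5 and 23.2 CPM in siCont (-0.93 ± 0.13; -0.71 with all libraries). JUN, a subunit of AP-1, had 26.8, 22.8 and 35.7 CPM in siNGFR, against 42.4, 47.0 and 43.2 CPM in siCont (-0.83 ± 0.12; -0.63 with all libraries), while MYC rose by 0.34. Genes of hypoxia and glycolysis had 15 falls and 1 rise among 32, with a median of -0.40, against 3 and 2 with library sizes as the sole scaling. PGK1, a glycolytic kinase, had 253, 224 and 443 CPM in siNGFR, against 545, 525 and 567 CPM in siCont (-1.19 ± 0.13; -0.83 with all libraries). BNIP3, of mitophagy, and SLC2A3, a glucose transporter, changed by -1.29 and -1.21. ADM, the peptide adrenomedullin, ran the other way, with 22.5, 18.0 and 13.5 CPM in siNGFR, against 8.80, 7.72 and 8.24 CPM in siCont (1.30 ± 0.14; 1.12 with all libraries). With all libraries MYC stood at 0.26, BNIP3 at -0.91 and SLC2A3 at -0.85.

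**Figure D4:**
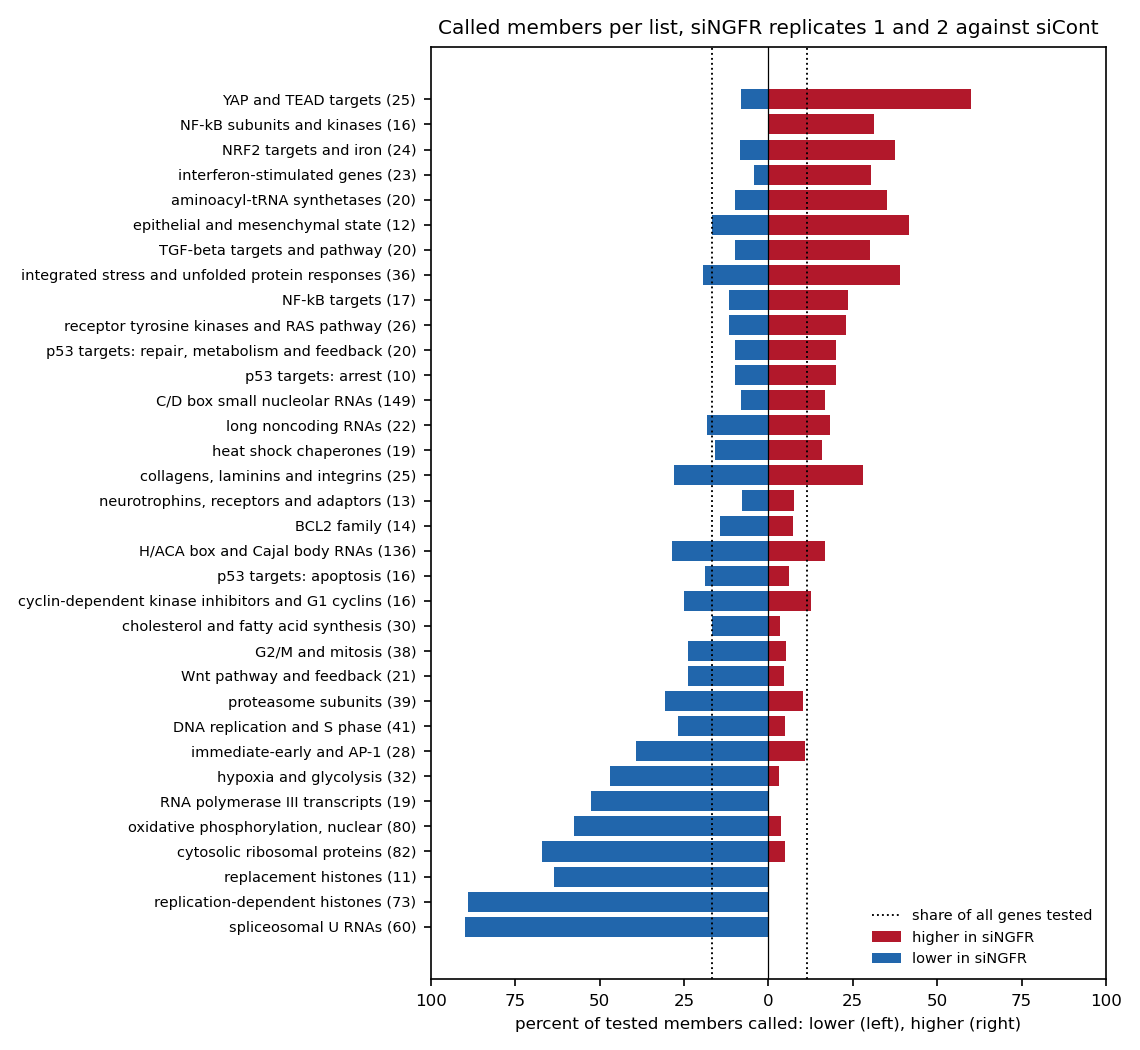
Percent of the tested members of each gene list that fell (left, blue) or rose (right, red) with siNGFR replicates 1 and 2 against siCont, with the number tested in brackets and dotted lines at the shares of all genes tested, 16.6% and 11.4%. YAP and TEAD targets, at the top, had 15 rises among 25, and spliceosomal U RNAs, at the bottom, had 54 falls among 60.

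The response of H1299 was then set against that of H460, in a fit of all 12 libraries with the difference of the 2 responses as the tested term. In H1299 minus H460, 58 of 21574 genes were higher (0.269%) and 34 lower (0.158%), whereas without siNGFR replicate 3 of H1299 the counts were 1897 and 2045. IGFBP3 differed by 2.82 ± 0.23 (adjusted p = 6.56e-05), from responses of 2.47 in H1299 and -0.34 in H460. PEG10, a gene derived from a retrotransposon, differed by 1.51 ± 0.20, from 0.27 in H1299 and -1.24 in H460. CCNI, cyclin I, differed by 1.32, LEPREL1, a collagen prolyl hydroxylase, by 1.29 and UBQLN1, of protein degradation, by 1.24. Without siNGFR replicate 3 of H1299 the differences were 2.98 for IGFBP3, 1.65 for PEG10, 1.46 for CCNI, 1.39 for LEPREL1 and 1.32 for UBQLN1. For PEG10, CCNI and UBQLN1 the larger response was that of H460.

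Differences in the other direction included CDKN1A and DKK1, a secreted inhibitor of Wnt signalling. CDKN1A differed by -2.40 ± 0.30 (adjusted p = 0.00464), from responses of -1.06 in H1299 and 1.34 in H460. DKK1 differed by -2.84 ± 0.33 (adjusted p = 0.00402), from 0.27 in H1299 and 3.11 in H460. Its H460 response started near the floor, with 1.51 to 1.82 CPM in siNGFR, against 0.141 to 0.231 CPM in siCont. JUN differed by -1.86 ± 0.24, with -0.63 in H1299 and 1.24 in H460. IER5, an immediate-early gene, differed by -1.20 ± 0.18, with -0.50 in H1299 and 0.69 in H460. H2AFZP1 differed by -1.98 ± 0.25, with -2.12 in H1299 and -0.14 in H460. Without siNGFR replicate 3 of H1299 these differences were -2.76 for CDKN1A, -2.78 for DKK1, -1.99 for JUN, -1.16 for IER5 and -1.94 for H2AFZP1, and all 10 kept their direction and their call. The lines also differ in much besides p53, and what part p53 or the siRNA used had in a difference cannot be told apart from the rest.

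**Figure D5:**
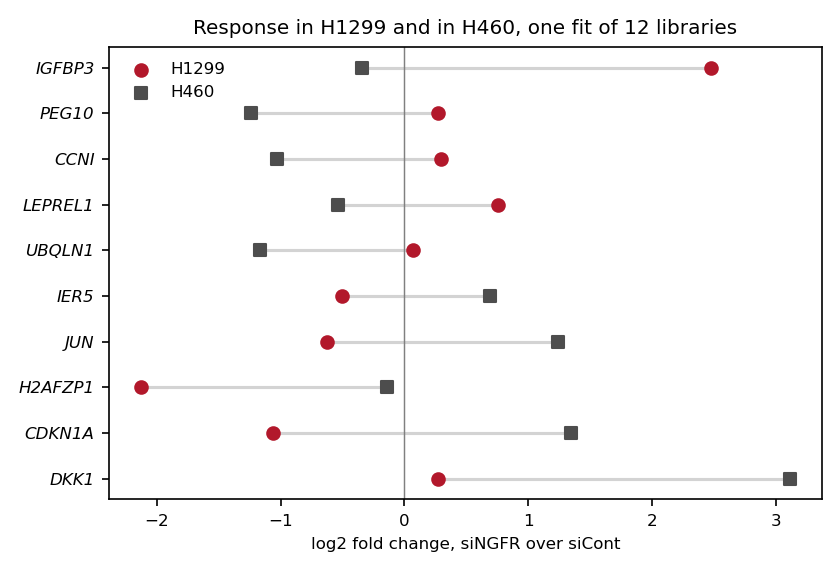
log2 fold change of siNGFR over siCont (horizontal) in H1299 (red circles) and H460 (grey squares) for the 10 genes named by the rule for the difference between the lines, from 1 fit of 12 libraries. IGFBP3, at the top, has 2.47 in H1299 and -0.34 in H460, and DKK1, at the bottom, has 0.27 in H1299 and 3.11 in H460.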

How the data were processed

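Read counts per gene came from a table deposited for the series. Per the labels, RNA was extracted with RNeasy columns, depleted of ribosomal RNA with RiboMinus and made into libraries with an Ion Total RNA-Seq kit. Bowtie2, STAR and hg38 are named in the submitters' processing notes. Strand use and the counter were not given in the sources used here. Among 64253 genes, 16450 without counts, 4146 off the primary chromosomes and 10893 repeats of another gene were left out, and 36033 of the 36910 kept matched GENCODE release 29. Another 24 per-sample columns were not used, nor were the authors' own comparison tables, which hold fold changes and probabilities.

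Libraries were grouped by their labels. edgeR 4.0.16 (R 4.3.3, limma 3.58.1) was run on the counts with its default filter on low counts, the trimmed mean of M values and quasi-likelihood tests, on the H1299 libraries, again without siNGFR replicate 3, and on 12 libraries for the difference between lines. Genes were called at an adjusted p under 0.05. The main fits, a fit with a replicate block and a DESeq2 fit were tested on simulated counts. No simulated library stood apart from its group as siNGFR replicate 3 did, and the other steps were not simulated. Alternatives were DESeq2 1.42.0, other scalings, filters, exon length, a fit over both lines, a replicate block and leaving out each library. Poisson limits cover counting error only. Near-identical copies and overlapping or antisense genes share reads and are uncertain.

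Genes were named by a rule: NGFR; up to 10 rises and 10 falls of largest fold change, without overlap between groups and with at least 50 counts on average; up to 3 called members of each list and direction with the smallest p; genes over 1% of a library; for the difference between lines, the 5 of smallest p in each direction; and neurotrophin and NF-kB members with at least 50 counts. RNU6-33P, SNORD32A, SNORD33, SNHG17 and HIST1H2AE stand outside it. Members and lists were chosen with earlier results of these data known. Some genes and sequences that the rule would name are not reported here.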

Additional observations from a re-analysis of the deposited data

Results flagged for a closer look

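For 15 of the named genes the response to the NGFR siRNA differed between the lines at an adjusted p under 0.05 in the fit of all 12 libraries, tested as the difference itself. Beside IGFBP3 (2.82), PEG10 (1.51), CCNI (1.32), LEPREL1 (1.29), UBQLN1 (1.24), DKK1 (-2.84), CDKN1A (-2.40), H2AFZP1 (-1.98), JUN (-1.86) and IER5 (-1.20), they were genes named for their change in H1299. The genes from IGFBP3 to IER5 were picked for the smallest p of this same test, so the choice itself made them pass. The others were picked by the H1299 response, which is part of the tested difference. The count of 15 is therefore a description and no support for a difference between the lines. RHOB differed by 1.43 ± 0.21 in H1299 minus H460 (adjusted p = 0.0103), from responses of 1.40 in H1299 and -0.03 in H460. ALPK2 differed by 2.16 ± 0.37 (adjusted p = 0.0202), with 2.12 in H1299 and -0.03 in H460. NTM differed by 2.54 ± 0.50 (adjusted p = 0.0406), with 1.64 in H1299 and -0.90 in H460. In H460 NTM was near the floor, with 0.126 to 0.260 CPM in siNGFR, against 0.342 to 0.416 CPM in siCont. LTBP2, which binds microfibrils of the matrix, differed by -1.43 ± 0.25 (adjusted p = 0.0245), with -0.24 in H1299 and 1.19 in H460. FDXR differed by -1.44 ± 0.28 (adjusted p = 0.0406), with -0.57 in H1299 and 0.87 in H460. The differences from RHOB to FDXR are given only with siNGFR replicate 3 of H1299 included.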

How the results depend on the processing

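With all H1299 libraries (2 higher, 2 lower) the calls were 13 and 12 with library sizes as the sole scaling, 81 and 95 with DESeq2, 87 and 121 without a filter on low counts, 64 and 44 in a fit over both lines, 2 and 1 where every library had 10 counts or more, and 2 and 0 among genes of at least 400 exon bases. Leaving out 1 library gave 0 to 2157 higher and 0 to 3139 lower genes: no gene was called without siNGFR replicate 1 or any siCont replicate (0 and 0), leaving out siNGFR replicate 2 gave 1 and 1, and leaving out siNGFR replicate 3 gave 2157 and 3139. Without siNGFR replicate 1, IGFBP3 stood at 2.24 (adjusted p = 0.0828) and RHOB at 1.39 (adjusted p = 0.24). With siNGFR replicates 1 and 2 (2157 and 3139) the calls were 5039 and 2017 with library sizes alone, 1500 and 2705 with DESeq2, and 3283 and 2806 over both lines. Leaving out 1 library gave 646 to 2038 higher, lowest when siNGFR replicate 2 was left out and 749 when siNGFR replicate 1 was, and 1730 to 3095 lower genes. The difference between the lines (58 and 34) gave 2879 and 156 with library sizes alone, 266 and 194 with DESeq2, 237 and 99 without a filter, and 1897 and 2045 without H1299 siNGFR replicate 3. The cause was not tested. No called gene named here changed direction in the alternatives run on it, but calls were lost. Among genes named by the rule and called with siNGFR replicates 1 and 2, 32 lost their call without siCont replicate 2. There 156 kept it. With library sizes alone 21 lost it and 167 kept it, and with DESeq2 18 lost it and 170 kept it. List counts that tipped the other way are given beside the lists.

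The labels do not say whether siNGFR and siCont libraries of the same number were made together. The deviations of same-numbered libraries from their group means correlated at 0.32, -0.21 and 0.12. In siNGFR these deviations are shaped by replicate 3, which stood apart, so they cannot decide whether the libraries were paired. A replicate block gave 0 and 0 calls with all libraries, 2340 and 3278 with siNGFR replicates 1 and 2, and 110 and 115 for the difference. In this pairing 2 of 3 siNGFR libraries correlated best with a siCont library of another number. At these depths NGFR mRNA was too rare to measure.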
